A study of Ipomoea batatas with 12 samples.

Results

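Drought combined with heat (DH) was compared with unstressed growth (CK) in the purple-fleshed sweetpotato cultivar Xuzishu 8, over 6 of the 12 RNA sequencing libraries of the series. DH plants stood in hydroponic solution with 30% PEG6000, an osmotic agent that withdraws water from the roots, at 42 °C, and CK plants in solution without PEG at 25 °C in another growth chamber. Heat alone (HT) was given at 42 °C without PEG and drought alone (DR) with 30% PEG6000, and both serve here to place DH against a single stress. Their libraries also count in the filter on low values and in the estimate of the spread behind every DH against CK call. Each group had 3 libraries, named DH1 to DH3, HT1 to HT3, DR1 to DR3 and CK1 to CK3, and each library pooled RNA of leaves and of storage roots taken at 7 times between 0.5 and 48 h. The methods call these biological replications but do not say if different plants went into each pool. The p-values therefore speak only of the spread among the pools sequenced. The values are FPKM, fragments scaled by transcript length and by library size, and the 12295 of 50592 genes that reached an FPKM of 1 in 3 or more of the 12 libraries were tested.

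Heat unfolds proteins and speeds respiration, and water loss closes stomata and cuts the supply of carbon, and both change how a plant protects its proteins and uses its stores. Small heat shock proteins hold unfolding proteins in solution until HSP70 refolds them. The glyoxylate cycle lets a cell turn fatty acids into sugar, and phenylalanine ammonia-lyase opens the route to lignin, flavonols and the anthocyanins that colour this cultivar. These roles are background and not results of these data.

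Under DH, chitinases, a small chloroplast chaperone, ethylene response factors and enzymes of fat use stood among the genes raised, and enzymes of phenylpropanoids, flavonoids, phenol oxidation and chlorophyll synthesis among those lowered. Such names exist only for the 203 tested genes with a symbol in the study's tables. They cover 17 of the 71 raised and 31 of the 119 lowered genes, and the function of the rest is not known here. In all, 71 genes were raised against CK (0.577% of those tested) and 119 lowered (0.968%), by limma, where a call needed a Benjamini-Hochberg adjusted p under 0.05 and more than 1 in absolute log2 fold change, while 1427 had an unadjusted p under 0.05. Fold changes are of FPKM + 1, which makes those of low genes smaller. The median log2 fold change of all tested genes was -0.37, with 4306 above 0 and 7982 below. The called changes were large, with a smallest log2 fold change of 3.62 among the raised genes and of -2.51 among the lowered ones, and medians of 5.41 and -4.47. The values of all 3 DH libraries lay above all 3 CK libraries in 70 of the 71 raised genes and below them in each of the 119 lowered ones, where 5.77% and 11.8% of all tested genes had values apart in these directions. The calls were made on these same values, so the separation in called genes largely follows from the call and is no added support. Scaling of the libraries moved the split between raised and lowered genes, to 178 and 185 with upper-quartile scaling, 190 and 139 with quantile normalization and 179 and 194 with median-of-ratios scaling. These scalings brought the median of all genes to -0.23, -0.08 and -0.24. The counts also moved with single libraries, to 18 raised and 45 lowered without DH1, 111 and 52 without DH2, 30 and 36 without DH3, 29 and 50 without CK2, 105 and 191 without CK1, 35 and 140 without CK3, 110 and 146 without HT2, and 51 and 73 without DR3.

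The libraries of a group differed widely from each other, and DH1 led most of the raised genes. Among the 71 raised genes DH1 was the highest DH library in 64 and DH2 the lowest in 57, with a median FPKM of 396 in DH1, 51.0 in DH2 and 114 in DH3, against 2.24, 1.0 and 0.76 in CK1 to CK3. Among the 119 lowered genes the median FPKM was 1.4, 0.84 and 1.53 in DH1 to DH3, against 75.9, 70.8 and 87.8 in CK1 to CK3, with CK1 the highest CK library in 53 genes and CK3 in 58. The 10 most abundant genes held 57.0% to 89.7% of all FPKM under DH and 38.4% to 75.6% in CK, and DH2, at 89.7%, also had the fewest genes above 0, 13653, while CK3 had the most, 33410. Over the 12295 tested genes the log2 values of DH1, DH2 and DH3 correlated with r between 0.85 and 0.88, those of CK1 with CK2 at 0.77, CK2 with CK3 at 0.79 and CK1 with CK3 at 0.48. These values describe the libraries over genes, which are not independent.

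Genes typical of leaf and of storage root were both lower under DH than in CK, and the CK libraries differed in the balance of the 2 tissues. The leaf list holds 8 genes of carbon fixation and chlorophyll synthesis. Their summed FPKM was 115, 39.9 and 580 in DH1 to DH3, against 7384, 2411 and 1283 in CK1 to CK3. The root list holds 5 genes, of starch metabolism and the catechol oxidase co-1. Their sum was 6.48, 49.3 and 68.8 under DH, against 664, 1166 and 5570 in CK. CK1 was thus the highest CK library in leaf genes and the lowest in root genes, and CK3 the reverse. Of the leaf markers 1, 4 and 2 were listed at 0 in DH1, DH2 and DH3 and none (0) in a CK library, and of the root markers 2 were listed at 0 in DH1. The sum of root markers other than the most abundant, co-1, was 0.5, 7.03 and 28.7 under DH, against 33.6, 103 and 1751 in CK. All of these markers had been chosen by the study as changed in these samples, so they are no independent measure of tissue. In pooled tissue a smaller share of a tissue and less RNA of a gene per cell cannot be told apart. The part of tissue balance in the results below was not tested.

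**Figure D1:**
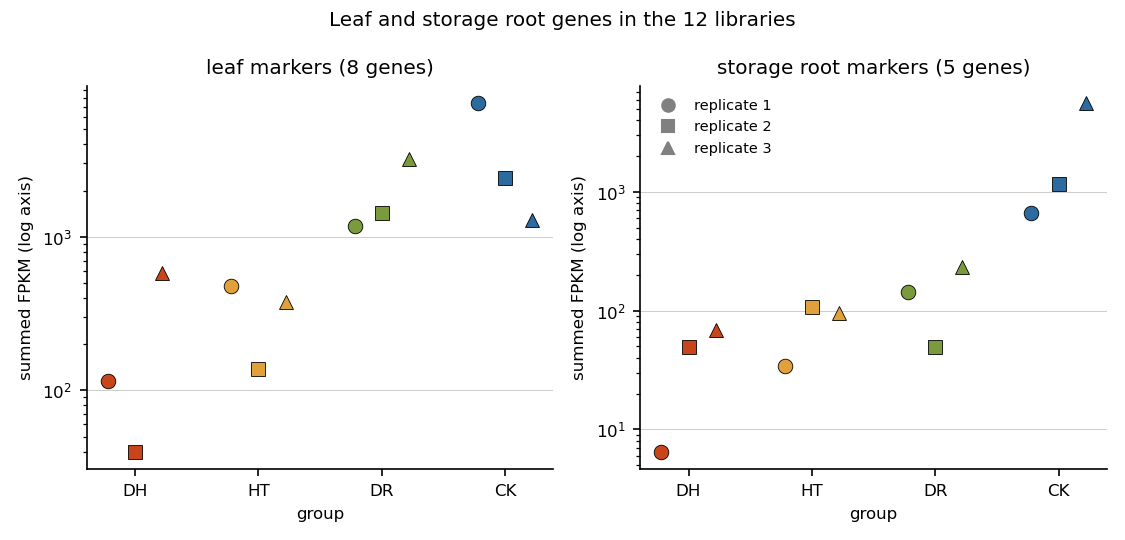
Summed FPKM of the leaf markers (8 genes, left) and the storage root markers (5 genes, right) on log axes, with 1 point a library and the shape giving the replicate number. DR2 does not list 2 of the leaf markers. DH libraries lie at 39.9 to 580 for leaf and 6.48 to 68.8 for root genes, below the CK libraries at 1283 to 7384 and 664 to 5570.

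The named genes were followed in 27 lists of 152 genes, of which 139 passed the filter and 13 did not. The genes were taken from the study's tables, which had chosen them as changed in these samples, and were grouped here, so the counts are no independent evidence of direction. Any tested gene, in a list or not, that is high in a single group passed the filter through that group and had to differ from the others. Some list members lower under DH passed it only with the CK libraries counted. They include HSP90, CAL1, PHO1, AATP1, PFP-ALPHA, PKP1, METK3, SBT1.6, CHI, CHI3, LGALDH, XTH1, CHLH copy MSTRG.39941 and FDH copy MSTRG.45382. Their lower DH level is no evidence of direction. Of the 139, 15 were raised and 26 lowered, 42 had all DH values above all CK values and 69 all DH values below. Over all 12295 tested genes 0.577% were raised and 0.968% lowered, and 5.77% and 11.8% had values apart in these directions. These shares are the base for the counts of each list below. The members that failed the filter are BGAL3 (G19627), SBE1, AGPP, DPEP, TPIP1, PKP2, METE (G45403), SAMS3, ADK1, DHAPS-1 (G6879), GSTF11 (G19432), CESA1 (G29465) and SCPL18, with an FPKM of at most 41.4 in any DH or CK library. Of the 46 called genes named here, 18 kept their call whichever 1 of the 12 libraries was left out: HSP21, RAP2-3, ERF071, EDL3, ICL2 (G23318), both CHIT1B copies, G23302 and G34013 among those raised, and PALA, both TPA1 copies, co-1, both DIT1 copies, SBT1.8, At5g56590 and G937 among those lowered. Of these, ERF071, TPA1 copy G23716, CHIT1B copy G27895 and G34013 did not pass without a filter on low values, where 40167 genes were tested. With only the 6 libraries of DH and CK, 18 of the 46 did not pass. They are HSP17.4B (MSTRG.37536), SHSP-2 (MSTRG.4626), both lowered CRD1 copies, CHSE, FL, AN3, SHKA (G16674), DHAPS-1 (G6925), SAHH, SHM4 (G8870), KOR, TUBA3 (G2000), CSLA9, OPR3 (G20440), BMY1, AED3 and XTH32 (G26672).

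**Figure D2:**
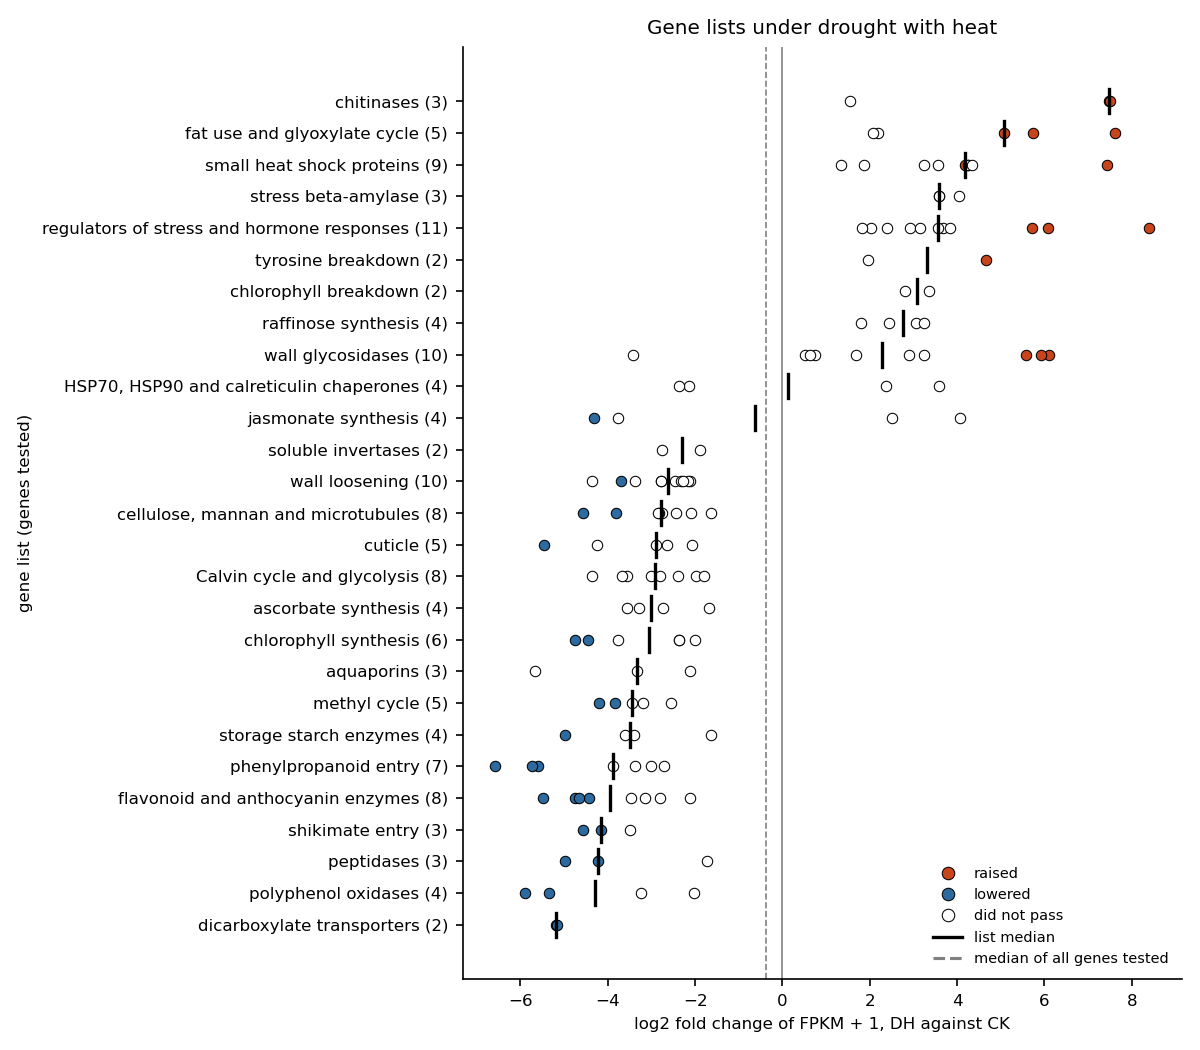
Log2 fold change of FPKM + 1, DH against CK, of each tested list member (point) by list, with the number of genes tested in brackets. Red points were raised, blue points lowered and white points did not pass; black bars are list medians, from 7.48 for chitinases to -5.18 for dicarboxylate transporters, and the dashed line is the median of all genes, -0.37.

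Small heat shock proteins were higher under DH in every member of the list, and 3 of 9 passed the test. The list had a median log2 fold change of 4.17 and a range of 1.34 to 7.43, and in 8 of the 9 genes no DH library overlapped a CK library. HSP21 (MSTRG.27569), the chaperone of the chloroplast, was at an FPKM of 147, 86.9 and 833 in DH1 to DH3, against 1.13, 0 and 0 in CK1 to CK3. On the log2 scale it rose by 7.43 (SE 1.15, adjusted p = 0.0017, limma), and DH3 stood above the other DH libraries. HSP17.4B (MSTRG.37536), of the cytosol, was at 134, 17.9 and 25.7 under DH, against 4.95, 0.45 and 0.18 in CK, and rose with 4.24 (SE 1.01, adjusted p = 0.033, limma). SHSP-2 (MSTRG.4626) was at 45.5, 5.4 and 18.7 under DH, with all CK libraries listed at 0 (adjusted p = 0.018, limma), which gives no fold change, and it was chosen after its values were seen, having the fifth largest change of its list. It passed the filter on low values only with the DH libraries counted. The other copies of these genes did not pass the test. HSP17.4B copy G39305 had 3.25 (SE 1.11, adjusted p = 0.17, limma). SHSP-2 copy MSTRG.38747 had an adjusted p of 0.36 (limma), and it too passed the filter only with the DH libraries counted. HSP17.5-M did not pass in either copy: MSTRG.30592 was at 71.4, 6.76 and 62.5 under DH, against 1.41, 0.48 and 0.24 in CK (4.33, SE 1.26, adjusted p = 0.086, limma), and MSTRG.30591 had 4.25 (SE 1.28, adjusted p = 0.1). HSP17.4B (MSTRG.37536) did not pass without DH1, DH3, DR3, CK2 or CK3 (3.37 to 4.55), nor SHSP-2 (MSTRG.4626) without DH1, DH3 or CK2 (adjusted p = 0.069 to 0.14, limma). The list's count was 1 without DH1, DH3 or CK2 and 5 without DH2, HT2 or HT3.

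Among the larger chaperones both HSP70 genes were higher under DH, and neither passed the test. HSP70-5 (G13246), which refolds proteins with ATP, was at 88.6, 6.58 and 16.2 under DH, against 1.64, 0.34 and 0.94 in CK (3.58, SE 1.03, adjusted p = 0.082, limma), and HSP70 (G9639) at 12.6, 4.18 and 7.2, against 0.48, 0.19 and 1.32 (2.38, adjusted p = 0.24). In both, every DH library was above every CK library. HSP90 (G17562) was at 0.65, 0.14 and 0.22 under DH, against 0.73, 2.81 and 27.9 in CK (-2.13, SE 0.84, adjusted p = 0.27, limma). The calreticulin CAL1 (G32946), a calcium-binding chaperone of the endoplasmic reticulum, was at 0.63, 0.21 and 0 under DH, against 0.5, 3.71 and 37.1 in CK (-2.36, SE 0.84, adjusted p = 0.19). In both of these genes most of the CK level came from CK3, the library highest in root genes. HSP90 and CAL1 passed the filter on low values only with the CK libraries counted, so their direction is no evidence. None (0) of the 4 passed, and without CK1 1 of them was called lowered.

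Regulators of stress and hormone responses had positive changes in all 11 genes (median 3.57), and 3 were raised. EDL3 (MSTRG.34959), an F-box protein known in Arabidopsis from abscisic acid signalling, had the largest change of all 12295 tested genes. It was at 3374, 97.3 and 741 in DH1 to DH3, against 1.33, 0.73 and 0.57 in CK1 to CK3 (8.4, SE 1.19, adjusted p = 0.0014, limma). RAP2-3 (G11018), an ethylene response factor, was at 1922, 395 and 624 under DH, against 8.56, 17.9 and 7.71 in CK (6.07, SE 1.0, adjusted p = 0.0025). ERF071 (G13450), another ethylene response factor, was at 496, 68.7 and 93.7, against 2.24, 1.81 and 1.46 (5.72, SE 1.03, adjusted p = 0.0044). All 3 had their highest DH value in DH1 and their lowest in DH2, and the lowest DH value was still far above the highest CK value. The fourth largest change of the list, of the auxin-conjugating enzyme GH3.1 (G24597), rested on DH1: it was at 388, 2.6 and 26.6 under DH, against 1.28, 1.71 and 1.19 in CK (3.83, SE 1.37, adjusted p = 0.2). MBF1C (G15814), a coactivator needed for heat tolerance in Arabidopsis, was the most abundant of the list and just missed the threshold, at 4805, 614 and 2342 under DH, against 124, 220 and 119 in CK (3.67, SE 0.98, adjusted p = 0.056). It was chosen after its values were seen. Without DH2, 7 genes of the list were raised in place of 3.

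Of 5 genes of fat use and the glyoxylate cycle, which together turn fat into sugar, 3 were raised, and the list median was 5.08. The isocitrate lyase ICL2 (G23318), the first enzyme peculiar to the glyoxylate cycle, was at 1395, 76.6 and 686 in DH1 to DH3, against 6.0, 0.43 and 0 in CK1 to CK3 (7.61, SE 1.25, adjusted p = 0.0025, limma). The malate synthase MLS (G42670), which takes the glyoxylate on, was at 1752, 116 and 1265, against 6.1, 9.56 and 21.5 (5.74, SE 1.14, adjusted p = 0.0084). ACX2 (G20012), an acyl-CoA oxidase that opens the breakdown of fatty acids in peroxisomes, was at 450, 24.4 and 149 under DH, against 2.92, 4.96 and 0.88 in CK (5.08, SE 1.08, adjusted p = 0.015). DH2 was the lowest of the DH libraries in each of the 3, yet above every CK library. The other 2 members had positive changes that did not pass: ICL2 copy G23306 was at 12.1, 0.13 and 5.8 under DH, against 0.05, 0 and 0 in CK (2.19, adjusted p = 0.35), and the aminotransferase At3g08860 (G10497) at 28.8, 5.15 and 40.2, against 1.81, 2.61 and 8.77 (2.08, adjusted p = 0.41). MLS did not pass without DH1 or DH3 (5.01 and 5.25), nor ACX2 without DH1, DH3 or CK3 (4.13 to 4.92), and without DH1 or DH3 the list held 1 raised gene, ICL2.

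In tyrosine breakdown HPD (G38888), which makes the homogentisate that also feeds vitamin E, was raised. It was at 1755, 146 and 561 under DH, against 21.1, 19.1 and 18.7 in CK (4.67, SE 1.02, adjusted p = 0.017, limma), and the CK libraries lay close to each other. HGO (G234), which breaks homogentisate down, was at 17.6, 0.62 and 11.6 under DH, against 0.16, 0.13 and 3.77 in CK (1.97, SE 1.17, adjusted p = 0.56). HPD did not pass without DH1, DH3 or CK2 (3.8 to 4.65).

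ICL2, MLS, HPD and 5 other genes were also given qRT-PCR primers by the study, whose readings are not used here. The pairs for ICL2 and MLS are shown because they mark the transcripts of the 2 enzymes of the cycle, and that for HSP70-5 and BXL1 because the primer table gives 1 identical pair for both genes. All are written 5′ to 3′ as listed there, and their position in the genome was not looked up.
ICL2 (G23318) forward: cgtacgatacggtgcctaataa
ICL2 (G23318) reverse: cctacctgctcatgttcattct
MLS (G42670) forward: ggagttcagaggccatgttaag
MLS (G42670) reverse: gtatttggtggcgggaatca
HSP70-5 (G13246) and BXL1 (G14317) forward: gcgattcagttggcgtaatg
HSP70-5 (G13246) and BXL1 (G14317) reverse: taaggcccacagtccaaatc
In the sequencing data the 2 genes that share a pair were unlike: the beta-xylosidase BXL1 (G14317) was at 1.88, 0 and 0.73 under DH, against 0.07, 0 and 0 in CK (0.74, SE 1.14, adjusted p = 0.83, limma), far below HSP70-5. Of the other genes with primers, XYLA (G27744), a xylose isomerase, was at 11.0, 0 and 4.14 under DH, against 0.18, 0 and 0.91 in CK (1.59, SE 0.94, adjusted p = 0.56), and PHOS34 (G33304), listed as a universal stress protein, at 1391, 227 and 818, against 99.8, 99.7 and 148 (2.48, SE 1.01, adjusted p = 0.3). PHOS34 did not pass although every DH library was above every CK library.

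Both copies of the chitinase CHIT1B, an enzyme that cuts the chitin of fungal walls, were raised, and the list of 3 chitinases had a median of 7.48. G27895 was at 1148, 17.6 and 700 in DH1 to DH3, against 0.77, 0.32 and 0.12 in CK1 to CK3 (7.48, SE 1.31, adjusted p = 0.0041, limma). G47455 was at 721, 14.4 and 532 under DH, with all CK libraries listed at 0 (adjusted p = 0.0025). The 2 copies had the same order of libraries, and near-identical copies can share reads, so their values are not independent. EP3 (MSTRG.17467), a further chitinase, was at 14.6, 0.34 and 0.29 under DH, against 0.08, 0 and 0 in CK (1.55, adjusted p = 0.6).

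Among glycosidases that act on wall sugars, 3 of 10 were raised and 0 lowered, with a median of 2.29. MAN2, a mannanase that cuts wall mannans, was raised in both copies: MSTRG.33887 was at 553, 13.1 and 76.8 under DH, against 0, 0 and 0.88 in CK (6.1, SE 1.22, adjusted p = 0.009, limma), and MSTRG.33886 at 344, 14.2 and 88.0, against 0.46, 0.95 and 0.48 (5.58, SE 1.37, adjusted p = 0.039). The beta-glucosidase gluA (G9941) was at 666, 20.6 and 85.4 under DH, against 1.26, 1.01 and 0.2 in CK (5.93, SE 1.15, adjusted p = 0.0074). All 3 were highest in DH1 by at least several fold. Another beta-glucosidase, BACOVA_02659 (G35534), had the opposite sign, at 9.28, 8.75 and 9.55 under DH, against 48.1, 162 and 164 in CK (-3.43, SE 0.93, adjusted p = 0.063), and did not pass. Without DH1 none (0) of the list was raised, gluA having 4.62 and MAN2 4.75 and 4.51, and MAN2 copy MSTRG.33886 also did not pass without DH3, DR1, CK2 or CK3 (5.48 to 5.72) or with a pseudocount of 0.1. Without CK1 or HT3 the list also held 1 lowered gene.

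Raffinose synthesis and the stress beta-amylase BAM1 had positive changes in all members, and none passed. GOLS2, the galactinol synthase that supplies raffinose synthesis, was at 33.0, 5.25 and 35.9 under DH in copy G19634, against 2.16, 1.15 and 0.98 in CK (3.06, SE 1.08, adjusted p = 0.19, limma), and copy G45635 had 2.45 (adjusted p = 0.39). The raffinose synthase RFS6 had 3.24 (G41031, adjusted p = 0.12) and 1.79 (MSTRG.31046, adjusted p = 0.48). In each of these 4 genes every DH library was above every CK library, and without DH2 1 of them was called raised. BAM1, a beta-amylase of plastids that frees maltose from starch, reached the highest level of any list member under DH in copy G15055, at 9031, 174 and 1095, against 284, 76.3 and 44.5 in CK (3.59, SE 1.25, adjusted p = 0.18), where DH2 was below CK1. Copies G29406 (4.05, adjusted p = 0.086) and MSTRG.8438 (3.58, adjusted p = 0.18) did not overlap CK. Leaving out a library called 1 copy raised without CK1 or HT2 and 2 without DH2.

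**Figure D3:**
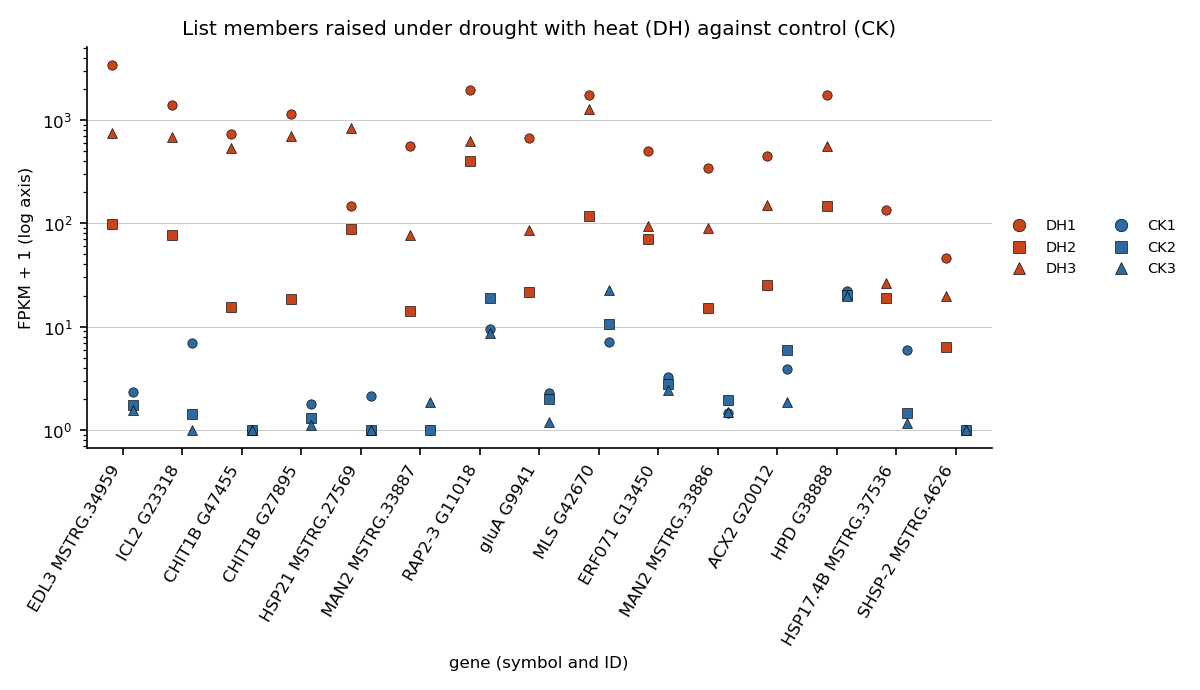
FPKM + 1 on a log axis of the 15 list members raised under DH, ordered by log2 fold change from EDL3 (8.4) to SHSP-2 (4.17), with the DH libraries (red) left of the CK libraries (blue) and the shape giving the replicate. No DH point lies under a CK point of the same gene, and DH2 (square) is the lowest DH point in most genes. The value that places SHSP-2 rests on the 1 added to FPKM, as all its CK libraries are listed at 0.

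Chlorophyll synthesis was lower under DH in all 6 genes (median -3.06), without overlap of DH and CK in any, and 2 passed. CRD1, the cyclase that closes the fifth ring of chlorophyll, was lowered in 2 of 3 copies. G16412 was at 15.2, 7.38 and 130 in DH1 to DH3, against 1202, 569 and 510 in CK1 to CK3 (-4.76, SE 1.05, adjusted p = 0.018, limma), and G16398 at 44.0, 15.8 and 286, against 3504, 1211 and 533 (-4.45, SE 1.1, adjusted p = 0.039). DH3 kept the highest level in both, as it did in the sum of leaf markers, of which they are part. GUN4 (MSTRG.41460), which activates the magnesium chelatase, was at 26.0, 3.73 and 18.6 under DH, against 282, 157 and 137 in CK (-3.76, SE 1.0, adjusted p = 0.058). The chelatase subunit CHLH (G26280) was at 0.17, 0 and 0 under DH, against 9.45, 3.57 and 2.37 in CK (-2.37, SE 0.85, adjusted p = 0.2). CHLH copy MSTRG.39941, counted among the 6, passed the filter on low values only with the CK libraries counted, so its direction is no evidence. Pheophorbide a oxygenase, PAO, which opens the ring when chlorophyll is broken down, had the opposite sign and did not pass: copy G37418 was at 135, 57.6 and 108 under DH, against 14.8, 4.3 and 8.53 in CK (3.36, SE 0.96, adjusted p = 0.081), and copy G37287 at 50.4, 22.9 and 77.5, against 3.77, 4.78 and 9.27 (2.8, SE 0.95, adjusted p = 0.16). No DH library overlapped CK in either copy. CRD1 copy G16412 did not pass without DH1, DH2 or CK2 (-4.91 to -3.94), nor G16398 without DH1, DH2, any DR library, CK1 or CK2 (-4.51 to -3.53), and the list of chlorophyll synthesis then held 0 or 1 lowered genes.

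The Calvin cycle and glycolysis had negative changes in all 8 tested genes (median -2.91), and none (0) passed. FBA5 (G42677), an aldolase, was at 4.16, 0 and 0.94 under DH, against 1022, 52.1 and 0.64 in CK (-4.37, SE 1.48, adjusted p = 0.16, limma), so that CK3 lay among the DH libraries. ALDP (G19612), an aldolase of plastids, was at 0, 0 and 2.05 under DH, against 49.5, 20.1 and 5.03 in CK (-3.68, SE 1.21, adjusted p = 0.14). The phosphoribulokinase At1g32060 (G1470), which makes the acceptor of carbon dioxide, was at 28.9, 12.9 and 145 under DH, against 2353, 463 and 90.3 in CK (-3.56, SE 1.13, adjusted p = 0.12). FBA2 (G42411) had -3.01 (SE 1.08, adjusted p = 0.2). All 4 were highest in CK1 and lowest among the CK libraries in CK3, as the leaf marker sum was, to which At1g32060 belongs, and without CK3 2 genes of the list were called lowered. Of the other tested members only the leaf marker GAPB had this order. PFP-ALPHA and PKP1 were highest in CK3, and At1g56190 was lowest in CK2.

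Enzymes of the cuticle, the waxy cover of leaves, were lower in all 5 genes (median -2.9), and 1 passed. CYP86A22 (G29886), a cytochrome P450 that hydroxylates fatty acids for cutin and related polyesters, was at 6.82, 0.23 and 0.84 under DH, against 427, 148 and 22.7 in CK (-5.46, SE 1.09, adjusted p = 0.0089, limma). FDH (MSTRG.43791), which extends the fatty acids of the epidermis, was at 0.2, 0.41 and 0 under DH, against 112, 51.5 and 0.96 in CK (-4.25, SE 1.13, adjusted p = 0.059), and its copy MSTRG.45382 at 0.68, 0.15 and 0, against 44.5, 8.52 and 0.1 (-2.65, SE 0.98, adjusted p = 0.23). FDH copy MSTRG.45382 passed the filter on low values only with the CK libraries counted, so its direction is no evidence. The factor MYB106 (MSTRG.17215), known in Arabidopsis to promote cuticle formation, was at 1.02, 0 and 1.9 under DH, against 54.1, 15.3 and 1.69 in CK (-2.9, SE 1.03, adjusted p = 0.19), and the acyltransferase DCR (MSTRG.19954) had -2.06 (adjusted p = 0.37). All 5 were highest in CK1 and lowest among CK libraries in CK3, as the sum of leaf markers was. CYP86A22 did not pass without DH3 (-5.21), and 4 genes of the list were lowered without CK3 and 2 without HT2.

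Water channels were lower in the 3 tested genes, and none (0) passed. PIP2-7 (G27911), an aquaporin of the plasma membrane, was at 28.3, 0.31 and 5.59 under DH, against 11119, 342 and 7.63 in CK (-5.66, SE 1.64, adjusted p = 0.083, limma), which is the fourth largest negative change of all list members and did not pass. Of the vacuolar aquaporins, TIP1-3 (G7059) was at 3.45, 0 and 0.42 under DH, against 63.4, 20.3 and 3.61 in CK (-3.32, adjusted p = 0.13), and TIP1-1 (G9854) at 1.64, 0 and 0.93, against 46.8, 2.4 and 1.6 (-2.12, adjusted p = 0.51). All 3 were highest in CK1 and lowest among the CK libraries in CK3, which overlapped DH in PIP2-7 and TIP1-1. Without CK3 or HT2 1 of the 3 was called lowered.

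The dicarboxylate transporter DIT1 of chloroplasts, which links photorespiration and nitrogen assimilation to the cytosol, was lowered in both copies. G25883 was at 2.31, 4.64 and 14.0 in DH1 to DH3, against 430, 126 and 248 in CK1 to CK3 (-5.19, SE 0.93, adjusted p = 0.0044, limma), and G41157 at 3.35, 4.33 and 12.1, against 432, 116 and 277 (-5.17, SE 0.92, adjusted p = 0.0044). The copies had nearly equal values, and near-identical copies can share reads. DIT1 was higher in CK3 than in CK2, while the leaf marker sum was lower in CK3.

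Enzymes from the shikimate pathway to flavonoids had negative changes under DH, a direction that the filter fixed in advance for some of them. Of 18 tested genes in the lists of shikimate entry, phenylpropanoid entry and flavonoid and anthocyanin enzymes 9 were lowered and 17 had no overlap of DH and CK, with medians of -4.15, -3.88 and -3.95. PAL (G26651), CHSE, FL, CHI, CHI3 and both tested GSTF11 copies passed the filter on low values only with the CK libraries counted. They are part of these counts and medians. Their direction is no evidence of a change. At the entry to the shikimate pathway, which makes the aromatic amino acids, the synthase DHAPS-1 (G6925) was at 1.6, 2.5 and 5.52 under DH, against 19.7, 86.0 and 427 in CK (-4.56, SE 1.05, adjusted p = 0.024, limma). SHKA, a synthase of the same step, was at 0.81, 1.59 and 0.92 in copy G16674, against 112, 7.5 and 51.4 in CK (-4.15, SE 0.98, adjusted p = 0.028), and copy G15990 had -3.5 (SE 0.94, adjusted p = 0.06). DHAPS-1 did not pass without any DH library, CK2 or CK3 (-4.93 to -3.44), nor SHKA without any DH library, CK1 or CK3 (-4.31 to -3.34), and without a DH library or CK3 the list held 0 lowered genes, and 1 without CK2.

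PALA (G292), the phenylalanine ammonia-lyase that commits the amino acid to phenylpropanoids, was at 0.31, 0.5 and 0.09 in DH1 to DH3, against 391, 127 and 35.6 in CK1 to CK3. Its log2 fold change was -6.57 (SE 0.99, adjusted p = 0.0014, limma), the largest negative one among the list members. TPA1, placed in the same list, was lowered in both copies. G24095 was at 4.4, 1.33 and 1.11 under DH, against 42.9, 199 and 457 in CK (-5.74, SE 1.03, adjusted p = 0.0044), and G23716 at 21.5, 4.3 and 4.98, against 145, 504 and 1101 (-5.6, SE 1.07, adjusted p = 0.0068). PALA was highest in CK1 and TPA1 in CK3, so that the CK level of each came mostly from another library. CYP98A3 (G25739), a hydroxylase on the way to lignin, was at 18.6, 5.91 and 2.27 under DH, against 532, 46.6 and 54.1 in CK (-3.88, SE 1.07, adjusted p = 0.067) and did not pass.

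Downstream, 4 of 8 enzymes of flavonoids and anthocyanins were lowered. The chalcone synthase CHSE (G16435), which makes the first flavonoid skeleton, was at 0.15, 0 and 0.17 under DH, against 640, 45.4 and 2.99 in CK (-5.48, SE 1.23, adjusted p = 0.02, limma). FL (G11743), a flavonol synthase, was listed at 0 in each DH library, against 403, 22.8 and 1.02 in CK (adjusted p = 0.041). CYP75B2 (G45681), the flavonoid 3′-hydroxylase, was at 0.23, 0.94 and 0.21 under DH, against 70.0, 15.2 and 38.5 in CK (-4.65, SE 0.92, adjusted p = 0.0084). AN3 (G43546), flavanone 3-hydroxylase, which leads to anthocyanins and flavonols, was at 1.19, 5.36 and 12.3 under DH, against 117, 39.3 and 401 in CK (-4.44, SE 1.12, adjusted p = 0.04). CHSE and FL had most of their CK level in CK1, and AN3 had its highest in CK3. CHSE and FL passed the filter on low values only with the CK libraries counted. The other 4 tested members, among them GSTF11, which helps carry anthocyanin to the vacuole, had -3.46 to -2.11 and did not pass. These 4 also passed the filter on low values only with the CK libraries counted. CHSE did not pass without any DH library or CK2 (-5.52 to -5.4), AN3 without any DH library, HT1, DR3 or CK3 (-5.06 to -3.6), CYP75B2 without DH3 (-4.53), and FL only passed without HT2 or CK3 (other adjusted p = 0.051 to 0.17, limma). The list held 1 lowered gene without DH1 or DH2, 0 without DH3 and 2 without CK2, DR3 or HT1.

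Catechol oxidases, which brown cut sweetpotato tissue by oxidising phenols, were lower in all 4 genes (median -4.29), and 2 were lowered. co-1 (G16137) was at 5.98, 42.2 and 40.2 under DH, against 630, 1063 and 3820 in CK (-5.89, SE 1.04, adjusted p = 0.0043, limma), and co-2 (MSTRG.36749) at 6.31, 1.42 and 0, against 141, 93.7 and 88.3 (-5.35, SE 1.05, adjusted p = 0.0084). co-1 had its lowest level in DH1 and its highest in CK3, and co-2 was nearly even across CK. Of the other co-2 copies, MSTRG.36748 was at 1.0, 0 and 0 under DH, against 19.6, 5.78 and 10.9 in CK (-3.23, SE 0.91, adjusted p = 0.075), and G38597 overlapped CK (-2.02, adjusted p = 0.53). co-2 did not pass without DH3 (-4.66), and the list then held 1 lowered gene.

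Enzymes of storage starch were lower in the 4 genes that passed the filter (median -3.5), and 1 was lowered. The beta-amylase BMY1 (G48653), an abundant protein of storage roots, was at 0.11, 2.62 and 7.91 in DH1 to DH3, against 24.8, 56.5 and 753 in CK1 to CK3 (-4.98, SE 1.27, adjusted p = 0.044, limma). AGPS1 (G24701), the small subunit of the enzyme that makes ADP-glucose for starch, was at 0.39, 4.04 and 18.8 under DH, against 7.12, 38 and 791 in CK (-3.61, SE 1.27, adjusted p = 0.19), and the phosphorylase PHO1 (G6471) at 0, 0.28 and 1.67, against 1.54, 7.36 and 187 (-3.4, SE 1.06, adjusted p = 0.11). AATP1 (G28300), the ATP carrier of plastids, had -1.63 (adjusted p = 0.48). In all 4 CK3 held the highest level, above CK1 and CK2 by several fold, and BMY1, AGPS1 and PHO1 are root markers themselves. BMY1 did not pass without any DH library, HT1, HT3, DR2, DR3, CK2 or CK3 (-5.69 to -3.55), which left the list with 0 lowered genes, and without CK1 it held 3. With upper-quartile scaling, quantile normalization, a pseudocount of 0.1, a filter asking for 6 libraries or the 6 libraries of DH and CK alone BMY1 did not pass either. The invertase TIV1, which splits sucrose in vacuoles, had -2.75 (G21840, adjusted p = 0.1) and -1.88 (G32432, adjusted p = 0.28).

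In the methyl cycle, which supplies S-adenosylmethionine for lignin and other methylations, all 5 tested genes were lower without overlap (median -3.45), and 2 were lowered. SAHH (G12408), which clears S-adenosylhomocysteine, was at 1.26, 0.26 and 0.23 under DH, against 17.3, 16.3 and 30.6 in CK (-3.83, SE 0.88, adjusted p = 0.024, limma). The serine hydroxymethyltransferase SHM4 was at 10.3, 20.9 and 34.3 in copy G8870, against 124, 493 and 863 in CK (-4.19, SE 1.09, adjusted p = 0.048), and copy G8891 was lower without overlap but did not pass (-3.45, SE 0.91, adjusted p = 0.052). The copies had their highest CK level in different libraries, CK3 and CK1. METE (G17900), which makes methionine, was at 0.81, 0.2 and 0.15 under DH, against 3.81, 6.92 and 48.9 in CK (-3.19, SE 0.94, adjusted p = 0.087). SAHH did not pass without any DH library, CK2 or CK3 (-4.11 to -3.55), nor SHM4 (G8870) without any DH or DR library, CK2 or CK3 (-4.58 to -3.6) or under upper-quartile, quantile or median-of-ratios scaling. Neither passed with the 6 libraries of DH and CK alone. The list held 0 lowered genes without any DH library, CK2 or CK3, 1 without a DR library and 4 without CK1.

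Ascorbate synthesis was lower without overlap in all 4 genes (median -3.01), and none (0) passed. VTC2, which commits GDP-galactose to vitamin C, was at 5.71, 0.82 and 1.86 under DH in copy G16532, against 41.5, 12 and 102 in CK (-3.56, SE 1.1, adjusted p = 0.11, limma), and at 5.05, 0.5 and 2.5 in copy G15160, against 43.1, 7.68 and 75.5 (-3.28, SE 1.31, adjusted p = 0.28). The epimerase At5g28840 (G165) had -2.73 (adjusted p = 0.2) and the dehydrogenase LGALDH (G30828) -1.68 (adjusted p = 0.28). LGALDH passed the filter on low values only with the CK libraries counted.

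Genes that build and loosen the growing wall were lower in all 18 tested members, and 4 were lowered. The XTH1 copies and CESA1 (G34861) passed the filter on low values only with the CK libraries counted, so their direction is no evidence. Among the 10 expansins and xyloglucan endotransglucosylases (median -2.61), which let the wall extend, XTH32 (G26672) was at 0.6, 0.72 and 1.51 under DH, against 5.94, 33.9 and 62.0 in CK (-3.7, SE 0.95, adjusted p = 0.046, limma). Its abundant copy G9843 was at 129, 5.63 and 10.4, against 96.9, 469 and 1841 (-4.36, SE 1.25, adjusted p = 0.081), so that DH1 overlapped CK. XTH9 (G22417) had -3.38 (SE 0.99, adjusted p = 0.086) without overlap, and the expansin EXPA4 (G10274) was at 1.01, 0.87 and 0.29, against 43.7, 3.9 and 6.14 (-2.78, SE 0.92, adjusted p = 0.15). XTH32 (G26672) did not pass without any DH or DR library, HT1, CK2 or CK3 (-3.9 to -3.03), nor with a pseudocount of 0.1, quantile normalization or the 6 libraries of DH and CK alone. Without CK1 4 genes of this list were lowered, and 0 without DH2, DH3, HT1, any DR library, CK2 or CK3.

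Of the 8 genes of cellulose, mannan and microtubules (median -2.79) 3 were lowered. The alpha-tubulin TUBA3 (G2000), of the microtubules that guide cellulose deposition, was at 3.5, 0.85 and 1.62 under DH, against 19.0, 39.3 and 357 in CK (-4.57, SE 1.11, adjusted p = 0.035, limma). KOR (G15032), the endoglucanase KORRIGAN, was at 6.11, 10.8 and 13.4, against 98.1, 131 and 259 (-3.82, SE 0.96, adjusted p = 0.04). CSLA9 (G27583), a mannan synthase, was at 0.27, 0 and 0 under DH, against 15.5, 4.3 and 4.1 in CK (-2.82, SE 0.73, adjusted p = 0.048). The beta-tubulin TUBB5 (G26129) was at 0.64, 0.45 and 1.25, against 1.88, 6.5 and 94.4 (-2.86, SE 1.01, adjusted p = 0.19). Both tubulins were highest in CK3, several fold above the other CK libraries. TUBA3 did not pass without any DH library, HT1, CK2 or CK3 (-4.92 to -3.35), KOR without any DH library, DR2, DR3, CK2 or CK3 (-4.04 to -3.43) or with quantile normalization, and CSLA9 without any DH or DR library, HT1, CK1 or CK2 (-3.08 to -2.26). With the 6 libraries of DH and CK alone TUBA3, KOR and CSLA9 did not pass either. The list held 0 lowered genes without any DH library or CK2 and 1 without CK3, DR2, DR3 or HT1.

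Of 4 genes listed under jasmonate synthesis 1 was lowered and 0 raised. The lipoxygenase LOX1.5 (MSTRG.8903), whose place on the jasmonate route is not established here, was at 281, 7.27 and 58.1 under DH, against 8.41, 1.15 and 0.45 in CK, with overlap (4.07, SE 1.11, adjusted p = 0.066, limma), and LOX2.1 (G9582) at 12, 0.35 and 15.8, against 0.27, 0 and 0.27 (2.51, SE 1.06, adjusted p = 0.32). OPR3, a reductase further down the route, was at 56.3, 1.61 and 6.17 in copy G20440, against 70.2, 359 and 327 in CK (-4.31, SE 1.1, adjusted p = 0.044), and at 32.0, 0.78 and 4.66 in copy G11747, against 28.6, 164 and 172 (-3.77, SE 1.09, adjusted p = 0.082). In OPR3 DH1 came close to CK1 or above it, while DH2 and DH3 lay well below. OPR3 (G20440) did not pass without DH2, DH3, HT1, any DR library, CK2 or CK3 (-4.31 to -3.33), and without CK1 or DH1 both copies were lowered. LOX1.5 was the gene called raised without CK1, DH2 or HT2.

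Peptidases were lower in the 3 tested genes (median -4.22), and 2 were lowered. The subtilisin-like protease SBT1.8 (G20777) was at 1.4, 2.43 and 0.71 under DH, against 25.4, 87.6 and 184 in CK (-4.97, SE 0.93, adjusted p = 0.0059, limma), and the aspartyl protease AED3 (G20666), known from apoplastic immunity in Arabidopsis, at 0.13, 2.54 and 1.91, against 8.15, 31.8 and 248 (-4.22, SE 1.05, adjusted p = 0.039). SBT1.6 (G30760) had -1.72 (adjusted p = 0.31). With 1 library left out AED3 passed only without HT2, HT3 or CK1 (otherwise -4.54 to -2.94), and it did not pass with a pseudocount of 0.1, quantile normalization or the 6 libraries of DH and CK alone. The list held 1 lowered gene, SBT1.8, without each of the other 9 libraries.

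**Figure D4:**
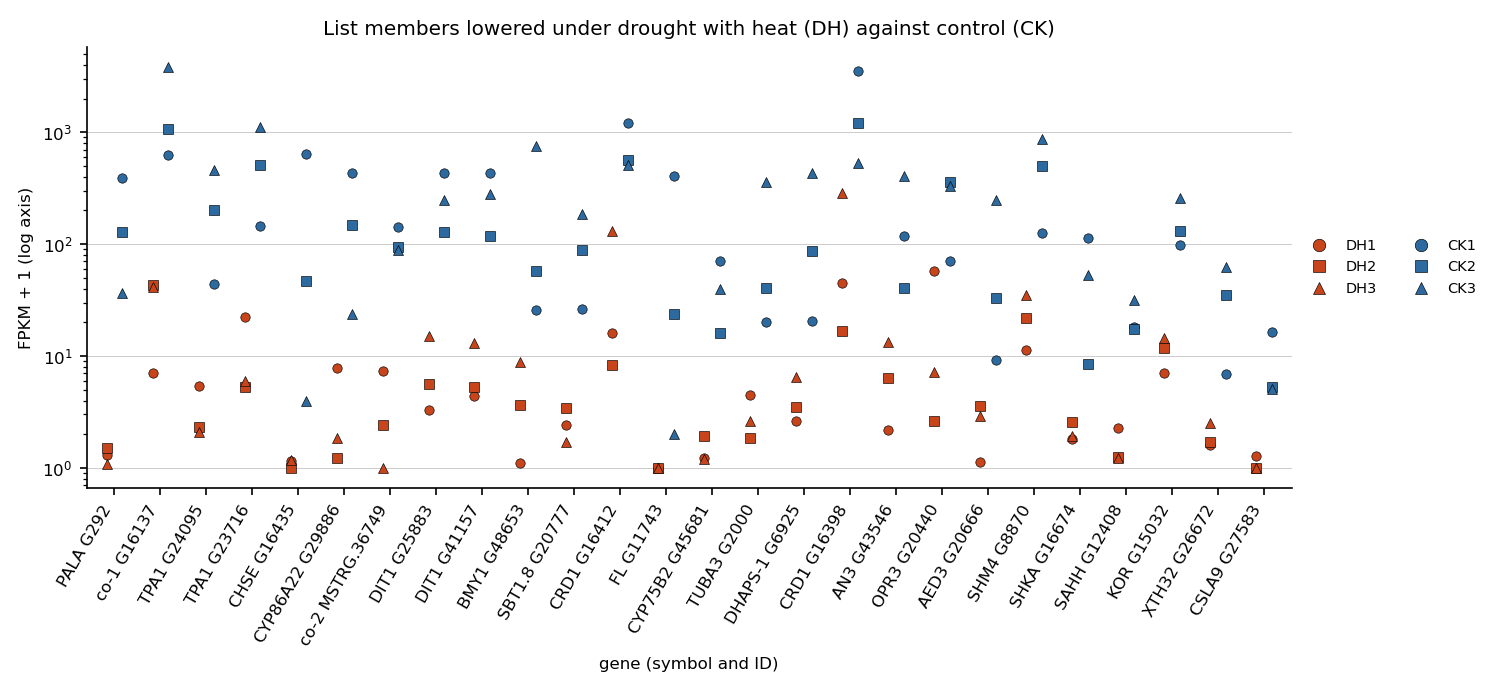
FPKM + 1 on a log axis of the 26 list members lowered under DH, ordered by log2 fold change from PALA (-6.57) to CSLA9 (-2.82), with the DH libraries (red) left of the CK libraries (blue) and the shape giving the replicate. No DH point lies above a CK point of the same gene, and the CK points spread most where CK1 (circle) or CK3 (triangle) stands apart, as in CHSE and BMY1.

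Among the 20 genes raised or lowered most, taken with at most 2 without a symbol in each direction, 5 are in no list. G23302 was at 823, 66.7 and 643 under DH, against 2.39, 0.49 and 0 in CK (7.59, SE 1.17, adjusted p = 0.0017, limma), in the same order of libraries as ICL2. G34013 was at 2140, 23.3 and 161, against 0.66, 0.23 and 0 (7.33, SE 1.28, adjusted p = 0.0041). On the lowered side G937 was at 1.9, 0 and 1.08 under DH, against 2116, 824 and 96.4 in CK (-8.25, SE 1.04, adjusted p = 0.00036), the smallest adjusted p of the comparison. G20087 was listed at 0 in each DH library, against 104, 483 and 337 in CK (adjusted p = 0.022), and did not pass without DH1, DH3, CK2 or CK3. It passed the filter on low values only with the CK libraries counted. At5g56590 (G25342) was at 0.5, 0.58 and 0.19, against 347, 30.6 and 14.1 (-5.28, SE 1.02, adjusted p = 0.007). The files and tables used here give no symbol for the other 4. Over all 50592 genes 19 were listed at 0 in every CK library and at 1 FPKM or more in every DH library, and 21 the reverse, of which 4 and 6 were called.

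Against heat alone no call could be made, which does not show that DH and HT were alike. None (0) of the 12295 genes passed between DH and HT (0.0% called, limma), where 597 had an unadjusted p under 0.05, although without HT2 55 genes passed and 1 without DH2 or CK1. The median log2 difference of all genes was -0.65. Of the 71 genes raised under DH against CK 55 had a higher mean log2 level under DH than under HT, with a median difference of 1.18, and of the 119 lowered ones 16 did, with a median of -0.66. These counts reuse the DH libraries that chose the genes and are a description. LOX1.5 was at 281, 7.27 and 58.1 under DH, against 1.42, 1.98 and 5.76 under HT (3.82, SE 1.11, adjusted p = 0.76), and EDL3 at 3374, 97.3 and 741, against 285, 13.4 and 62.9 (3.29, SE 1.19, adjusted p = 0.76). The HSP70 genes had the opposite sign: HSP70 (G9639) was at 12.6, 4.18 and 7.2 under DH, against 43.0, 17.9 and 47.0 under HT (-2.04, SE 0.9, adjusted p = 0.76), and HSP70-5 had -1.7 (SE 1.03, adjusted p = 0.76). The interval of the difference for HSP70-5 ran from -3.83 to 0.42. These 4 genes were chosen after their values were seen.

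Against drought alone 5 genes passed, all lower under DH (0.0407% called, limma), where 435 had an unadjusted p under 0.05. None (0) passed with a pseudocount of 0.1, without a filter on low values or with a filter asking for 6 libraries, and 731 did with limma array weights. G3755 was at 30.4, 10.3 and 52.3 in DH1 to DH3, against 1704, 2938 and 4924 in DR1 to DR3 (-6.77, SE 1.27, adjusted p = 0.045), and was at 1050, 539 and 11.4 in CK. G30899 was at 1.31, 0 and 1.47 under DH, against 393, 188 and 35.5 under DR (-6.29, SE 1.03, adjusted p = 0.027). G34785 was listed at 0 in every DH, HT and CK library and at 8.81, 4.79 and 23.5 under DR, so it entered the test only through DR and its pass is no evidence of a difference. SHSP-2 (MSTRG.38747) was at 3.16, 1.04 and 4.81 under DH, against 79.8 in DR1 and 152 in DR3 (-4.92, SE 0.92, adjusted p = 0.045), and was listed at 0 in every HT and CK library. MSTRG.45150 was at 2.28, 0.13 and 0.88, against 27.1 and 176 in DR1 and DR3 (-5.2, SE 0.92, adjusted p = 0.037). The last 2 rest on 2 DR libraries, since DR2 lists neither, and MSTRG.45150 passed the filter only with these counted. SHSP-2 thus appeared with drought in both forms and in no library of heat alone or of CK, in its 2 copies, apart from 0.17 FPKM of MSTRG.4626 in HT3. The count of genes was 0 without any DH library or HT1, 1 without any DR library or CK2, 10 without HT2, 14 without CK1 and 8 without CK3.

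Genes of chlorophyll synthesis and carbon fixation had lower levels under DH than under drought alone, without passing the test. CRD1 (G16412) was at 15.2, 7.38 and 130 under DH, against 274, 361 and 651 under DR (-3.95, SE 1.05, adjusted p = 0.39, limma), and at 84.1, 20.0 and 70.8 under HT (DH less HT -0.95, adjusted p = 0.79). Every DR library was above every DH library. The lists of chlorophyll synthesis, Calvin cycle and glycolysis and cuticle had median differences of -2.56, -2.39 and -2.36 between DH and DR and of -0.42, -0.42 and -0.83 between DH and HT, where all tested genes had -0.4 and -0.65. PALA was low under all stresses, at 0.31, 0.5 and 0.09 under DH, with a difference of -0.84 to HT (adjusted p = 0.8) and of -1.31 to DR (adjusted p = 1.0). The chitinase CHIT1B (G27895) had 2.77 against HT (adjusted p = 0.76) and -2.65 against DR (adjusted p = 1.0). The sum of leaf markers was 138 to 479 under HT and 1171 to 3196 under DR, beside 39.9 to 580 under DH. It is made of the chlorophyll genes, At1g32060 and GAPB, so it restates their levels and is no separate measure.

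**Figure D5:**
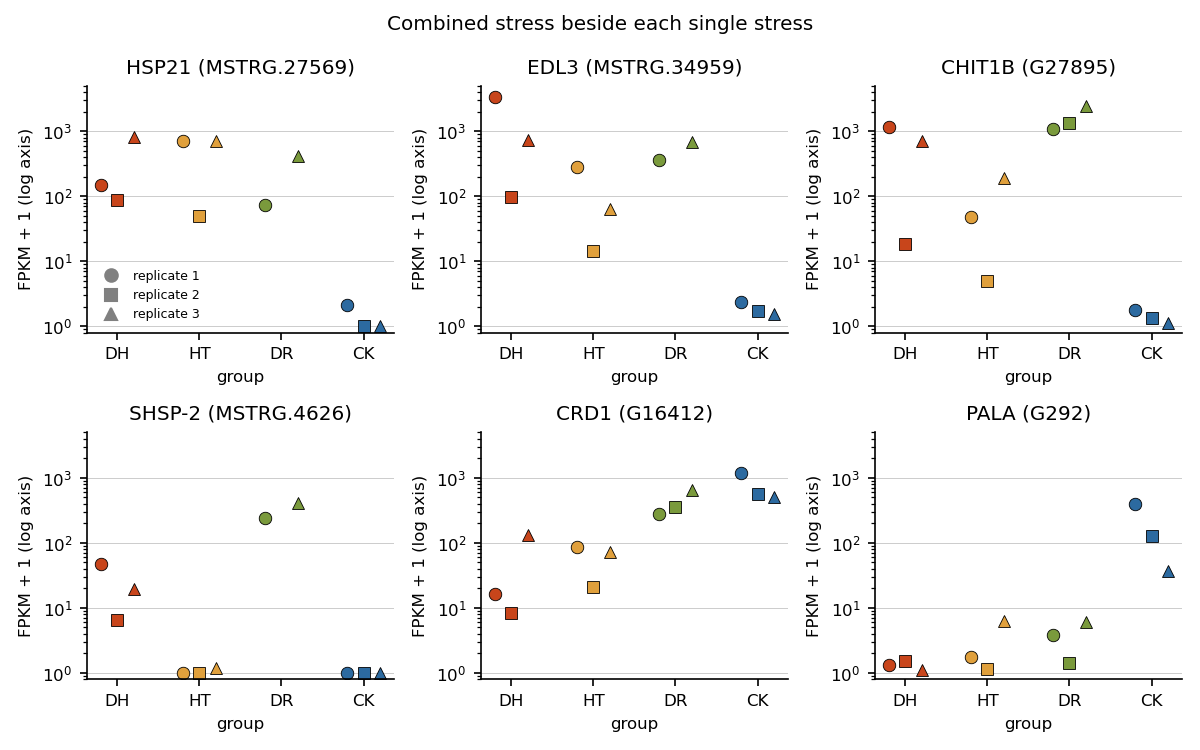
FPKM + 1 on a log axis of 6 genes in the DH, HT, DR and CK libraries, with 1 point a library and the shape giving the replicate; the genes were chosen after their values were seen, and DR2 does not list HSP21, EDL3 and SHSP-2. SHSP-2 copy MSTRG.4626 is above 5 FPKM in each DH library and in the listed DR libraries and below 0.2 elsewhere, and CRD1 is lower in the DH libraries (7.38 to 130) than in the DR libraries (274 to 651).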

How the data were processed

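Pools of leaf and storage root RNA made up 12 libraries, 3 each for DH, HT, DR and CK. Per the labels, the authors used cutadapt 1.9, HISAT2 2.0.4 and StringTie 1.3.4d, and the deposited values are FPKM per gene. FPKM is relative to the other genes of its library, so a few very abundant genes lower all others. No counts were used and depth is unknown, so no counting intervals are given. DR2 lists 49073 genes and the others 50592, and 1087 tested genes have no DR2 value. These were fitted without it.

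Here, log2(FPKM + 1) of genes reaching an FPKM of 1 in 3 or more libraries was fitted with limma 3.58.1 in R 4.3.3 (lmFit, eBayes with a mean trend), with all 12 libraries in 1 fit, with Benjamini-Hochberg adjustment across all 12295 genes. The same procedure was tested on simulated data. Gene symbols came from the study's tables, and none (0) of the IDs matched the 175826 rows of the RefSeq gene table. Members and lists were chosen with earlier results of these data known. Named were up to 4 genes of each list with the largest absolute change and each member of lists of up to 5, the 10 genes raised and the 10 lowered most without overlap, taking at most 2 without a symbol in each direction, and the genes with qRT-PCR primers. Other pseudocounts, filters, scalings, samples and models, and each library left out in turn, were tried. CK plants stood in another chamber, so chamber and stress cannot be told apart. Near-identical gene copies of this polyploid may share reads. Tables were handled in Python 3.11.15 with pandas 2.3.3, and figures drawn with matplotlib 3.10.9.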

Additional observations from a re-analysis of the deposited data

How the results depend on the processing

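The numbers of genes raised and lowered under DH against CK depended strongly on the processing, and no DH against CK change of a tested list member, of the genes named for the largest changes or of a gene with primers turned its sign under any alternative run. The 71 raised genes became 112 with a pseudocount of 0.1, 12 without a filter, 178 with upper-quartile scaling, 190 with quantile normalization, 179 with median-of-ratios scaling and 995 with limma array weights. The 119 lowered genes became 123 with that pseudocount, 23 without a filter, 185, 139 and 194 with the 3 scalings, 56 with only the 6 libraries of DH and CK, beside 53 raised, and 1264 with array weights. Leaving out 1 library at a time gave 18 to 111 raised and 36 to 191 lowered genes. Without a filter 40167 genes were tested, and the cause of the other shifts was not tested. Between DH and HT 0 genes became 2 with quantile normalization, 2 with median-of-ratios scaling and 1 with array weights, and 0 to 55 with 1 library left out. Between DH and DR 5 genes became 0 with a pseudocount of 0.1, without a filter or with a filter of 6 libraries, 2 with quantile normalization, 2 with median-of-ratios scaling, 3 with the libraries of both groups only and 731 with array weights, and 0 to 14 with 1 library left out. Of the 46 named calls 45 were kept with median-of-ratios scaling, 44 with upper-quartile scaling, 41 with quantile normalization, 42 with the lower pseudocount, 28 with the 6 libraries alone and 15 without a filter.

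With the replicate number as a block, 141 genes were raised and 209 lowered, and all 46 named calls were kept. The numbers were not taken as pairing the samples, since the deviations of same-numbered DH and CK libraries correlated at 0.29, -0.08 and 0.28 over 11208 genes, and DH2 did not correlate best with its own number.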
